A study of Homo sapiens with 4 samples.

Results

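BRPF3 peaks of hydroxyurea-treated and asynchronous RKO cells were compared on chromosomes 1 to 22. Every peak that the authors deposited for those chromosomes was taken, which gave 13040 peaks in hydroxyurea (HU) cells and 12759 in asynchronous cells, together 25799 of the 38123 peaks in the 3 lists of the series. Peaks of the lists were called partners when they shared 1 bp or more.

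RKO is an established human colon carcinoma line. Asynchronous cells grew without treatment and so hold a mixture of cell cycle stages. HU cells were first held in 0.5 mM mimosine for 22 h, were then released for 3 h, and received 3 mM HU for 1 h 30 min, so mimosine and release were part of their history and are not separable from HU here. Chromatin immunoprecipitation followed by sequencing used a laboratory-made rabbit antibody to BRPF3 on 1 library per condition, and both lists were called against 1 rabbit IgG library from HU cells, so the control matches only the HU condition. A free-text field of the labels names other BRPF proteins, whereas the titles and the antibody field name BRPF3. With no replicate on either side, each difference describes these libraries, has no replicate check and carries no p-value. Read depth is unknown for both libraries. Peak number and width depend on depth, and its part in the differences was not tested.

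BRPF3 is a scaffold protein that joins a MYST-family histone acetyltransferase, chiefly KAT7 (also called HBO1), to chromatin through reader domains for histone marks. KAT7 acetylates histones H3 and H4 and was first known for binding the origin recognition complex, which marks the places where DNA replication can start. HU blocks ribonucleotide reductase, which lowers the supply of deoxynucleotides and stalls replication forks, while mimosine holds cells near the start of S phase. The comparison therefore sets BRPF3 in cells with stalled forks beside BRPF3 in a growing population.

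HU cells had more BRPF3-covered sequence, and most of the gain lay at sites found in both conditions. Peaks covered 42.6 Mb in HU cells and 38.2 Mb in asynchronous cells, a ratio of 1.12. Of this, 36.0 Mb were the same base pairs in both lists, which is 84.4% of the HU length and 94.2% of the asynchronous length. HU peaks that had a partner covered 5.16 Mb outside the shared sequence, whereas such asynchronous peaks covered 1.49 Mb outside it. These lengths include extension at the ends and gaps between neighbouring peaks that a peak of the other list spans. Peaks without any partner added 1.49 Mb in HU cells and 0.736 Mb in asynchronous cells. Such sequence at partnered sites thus made up 83.1% of the difference of 4.42 Mb between the lists. On the scale of single peaks the median width was 2919.5 bp in HU cells (interquartile range 1965.75 to 4063.5 bp) and 2668 bp in asynchronous cells (1844 to 3673.5 bp).

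Most sites were found in both conditions. Of the 13040 HU peaks, 11881 (91.1%, exact Clopper-Pearson 95% interval 90.6 to 91.6%) had an asynchronous partner. Of the 12759 asynchronous peaks, 12070 (94.6%, 94.19 to 94.99%) had an HU partner. This left 1159 HU peaks (8.89%) and 689 asynchronous peaks (5.40%) without a partner. With peaks below a score of 100 removed from both lists, the numbers were 551 and 450. All intervals here cover counting error only. Few sites sat at the edge of the 1 bp rule. Among 12207 overlaps, 34 were shorter than 100 bp, while 17 HU peaks and 12 asynchronous peaks without a partner ended less than 100 bp from a peak of the other list. The median overlap was 2625 bp.

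Finding a partner depended on the peak score. The score is the authors' own value, 10 times the negative base-10 logarithm of the peak caller's p-value, with 50 as its lowest value in both lists, and it was used to rank peaks within a list. In the lowest of 10 equal score groups, a partner was found for 60.5% (57.8 to 63.2%) in asynchronous cells and for 42.3% (39.6 to 44.99%) in HU cells. The next group gave 87.1% and 74.4%, and the third 98.5% and 95.8%. From the fourth group upward each group of the asynchronous list stood at 99.9% or more, and each group of the HU list at 98.9% or more. In the upper 50% of scores, 1 of 6520 HU peaks and 0 of 6380 asynchronous peaks lacked a partner, and a count of 0 allows up to 0.047%. HU peaks lacked a partner more often than asynchronous peaks in each of 4 score ranges. For scores from 50 to below 100 the shares were 50.5% (48.3 to 52.8%) in HU and 35.6% (33.3 to 38.0%) in asynchronous cells. They were 10.9% and 6.50% from 100 to below 200, 1.93% and 0.473% from 200 to below 300, and 0.0817% and 0.0116% at 300 or more, the last resting on 7 HU peaks and 1 asynchronous peak.

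**Figure D1:**
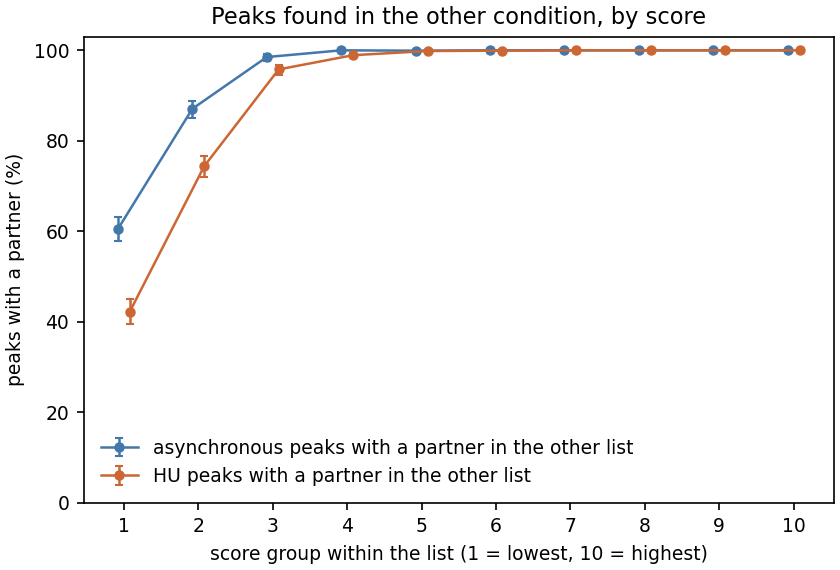
Share of peaks with a partner in the other list (vertical axis, %) in 10 equal groups of rising score within each list (horizontal axis), with exact 95% intervals as bars. HU peaks lie below asynchronous peaks in the lowest 3 groups (42.3% against 60.5% in the first), and both lists reach 98.9% or more from the fourth.

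Peaks without a partner were narrow and low in score in both conditions. For the 1159 HU peaks the median width was 1118 bp, with quartiles at 886 and 1464.5 bp, and the median score was 66.6, against 3082 bp and 639 for HU peaks with a partner. For the 689 asynchronous peaks the values were 963 bp, with quartiles at 758 and 1280 bp, and a score of 66.0, against 2754 bp and 623. Within its own list, the median such peak stood at rank percentile 7.15 in HU and 6.14 in asynchronous cells. Distances to the other list were of similar size. The gap to the nearest peak of the other list had a median of 15.6 kb for HU and 18.5 kb for asynchronous peaks, 32.5% and 29.2% lay within 5 kb, and 7.51% and 6.68% lay 200 kb or more away. HU peaks within 5 kb of an asynchronous peak had a median score of 65.1, and those 50 kb or more away 67.0. At a score of 100 or more, 187 of 11116 HU peaks (1.68%) and 99 of 11102 asynchronous peaks (0.892%) overlapped no peak of the other list at any score.

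The strongest site of HU cells with no asynchronous partner was chr4:77702472-77705700. Its score of 591 put it at rank percentile 52.3 of the HU list, it was 3229 bp wide, and the nearest asynchronous peak lay 163 kb away. The next was chr3:48591223-48596020, 4798 bp wide with a score of 399 and a gap of 48.8 kb. It was followed by chr13:113838946-113842276 with a score of 396 and a gap of 19.03 kb. A pair of HU peaks of similar score stood close to asynchronous sites. The peak chr3:25830028-25834406 (score 377) was 4.13 kb from one, and chr2:219150406-219153379 (score 350) was 2.06 kb from one. On the asynchronous side, chr4:151229980-151233058 stood apart with a score of 487, rank percentile 45.3 and a gap of 229 kb to the nearest HU peak. The following asynchronous sites were weaker, from chr6:144536524-144538771 with a score of 233 to chr19:51059273-51060472 with a score of 212. Chromosome 4 thus held the leading site of each condition. Positions are counted from 1 and were taken as hg19, 1 of the 2 builds named in the submitters' processing notes, and genes at these sites were not assigned, because the gene table used here is of another build.

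At sites with exactly 1 partner in each direction, the HU peak was usually the wider. There were 11357 such pairs, 87.1% of HU and 89.0% of asynchronous peaks. Their median width was 2760 bp for the asynchronous and 3059 bp for the HU member. The median of the width ratio, HU over asynchronous, was 1.09 (exact order-statistic 95% interval 1.08 to 1.09, interquartile range 0.994 to 1.21). HU peaks were wider in 8341 pairs (73.4%, 72.6 to 74.3%), narrower in 3009 and equal in 7. The median difference was 231 bp. A ratio of 1.5 or more was reached in 545 pairs (4.80%), and a ratio of 1.5 or more in the opposite direction in 62 pairs (0.546%).

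**Figure D2:**
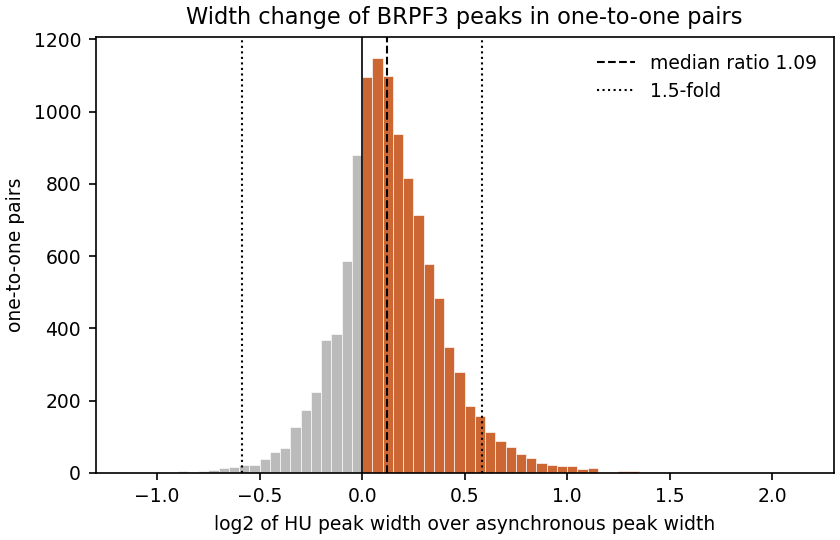
Histogram of the log2 width ratio, HU over asynchronous (horizontal axis), for 11357 pairs (number of pairs on the vertical axis); grey bars are pairs with a narrower HU peak, the dashed line is the median ratio of 1.09 and dotted lines mark 1.5-fold in either direction. The distribution is shifted to wider HU peaks, with 545 pairs past the upper dotted line and 62 past the lower.

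Taken over all pairs, the extra width was about even between the lower and the upper end, but single sites varied. The lower-coordinate end of the HU peak lay a median of 97 bp outside the asynchronous one (interquartile range -38 to 286 bp), and the upper-coordinate end 95 bp outside (-42 to 290 bp). The centres moved by a median of 130.5 bp without a direction, with a signed median of -0.5 bp, and by more than 1 kb in 83 pairs. In 5475 pairs (48.2%) the HU peak extended past both ends of its partner, and in 1243 (10.9%) the asynchronous peak did. The HU peak reached further at the lower end only in 2350 pairs (20.7%) and at the upper end only in 2275 (20.03%). The ends moved outward in 68.9% of pairs at the lower and 68.2% at the upper coordinate. The outward shifts of the ends of a peak were weakly correlated across the pairs (Spearman's rho 0.066). Pairs of a chromosome share libraries and control, so correlations across pairs are descriptions. Widening was present at all sizes of site. Grouped by the geometric mean of both widths, which favours neither list, the median ratio was 1.07 (1.03 to 1.11) for 277 pairs under 1 kb, 1.08 (1.07 to 1.09) for 2175 pairs of 1 to 2 kb, 1.09 (1.09 to 1.10) for 6286 pairs of 2 to 4 kb, 1.08 (1.07 to 1.09) for 2433 pairs of 4 to 8 kb and 1.03 (1.02 to 1.05) for 186 pairs of 8 kb or more. In bp, the median gain ran from 57 bp in the narrowest class to 379 bp at 4 to 8 kb and 294.5 bp at 8 kb or more.

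Pairs with strong widening had a low to middle median rank, but selecting by the ratio favours narrow asynchronous peaks. By score group of the asynchronous list, such pairs numbered 110 in the lowest and 16 in the highest group. By score group of the HU list, they numbered 21 in the lowest, 86 in the second and 24 in the highest group. The 545 pairs with a ratio of 1.5 or more had an asynchronous median of 1944 bp and an HU median of 3337 bp, with a median rank percentile of 30.4 and 41.6. The rank was higher in HU cells in 421 of them, with a median shift of 8.43 points against 0.109 points over all pairs. Width and score come from the same reads, so the rise in rank is not separate from the widening. In 178 of these pairs (32.7%), an extension at 1 end made up 90% or more of the gain. By the same rule this held for 3890 of all 8341 pairs with a wider HU peak. Where the gain is small, a slight inward move of 1 end is enough to pass this rule. These shares therefore do not compare strong widening with widening in general. The 62 strongly narrowed pairs went from a median of 2361 bp in asynchronous to 1367.5 bp in HU cells. In 31 of these 62 pairs and in 145 of the 545, a score below 100 was recorded in at least 1 list. With both scores at 100 or more, the largest ratio was 4.43 at chr11:102187664-102188724, where the asynchronous peak of 1061 bp lay within an HU peak of 4697 bp that reached 2853 bp further at its upper end. At chr14:62217132-62218388 the width went from 1257 bp in asynchronous to 5142 bp in HU cells, and 3515 bp of the gain lay at the lower end. The site chr5:173314439-173316395 gained 4098 bp at its upper end and went from 1957 to 6185 bp. These 3 sites were narrow, low-ranked asynchronous peaks, at rank percentiles 15.4, 20.02 and 26.7, and stood at 53.5, 61.7 and 59.3 in HU cells. The strongest narrowing at such scores was at chr3:75482297-75485716, from 3420 bp in asynchronous to 1765 bp in HU cells. Its rank changed little, from percentile 19.6 to 21.1. At chr16:85204931-85208600 the width fell from 3670 to 2101 bp, almost wholly at the upper end, with rank percentiles of 52.8 and 52.6.

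The order of sites by score was largely the same in both conditions. Scores of 3100 or more were held by 964 HU and 971 asynchronous peaks and do not resolve the order among them, so they were set equal before ranking. Across the 11357 pairs, Spearman's rho was 0.942 for score and 0.927 for width. The rank percentile differed by less than 10 points in 8600 pairs (75.7%). It was 20 points or more higher in HU cells in 338 pairs (2.98%) and 20 points or more lower in 140 pairs (1.23%). With only scores of 100 or more ranked, 403 pairs rose and 285 fell by that much. With equal numbers of peaks in both lists, 285 rose and 179 fell by that much. At the top of the scale, 716 pairs stood at 3100 or more in both lists, 155 only in asynchronous and 162 only in HU cells. Where only 1 list reached 3100, the partners had median scores of 2577 in HU and 2578 in asynchronous cells. The lowest partner scores were 780 in HU and 1143 in asynchronous cells.

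**Figure D3:**
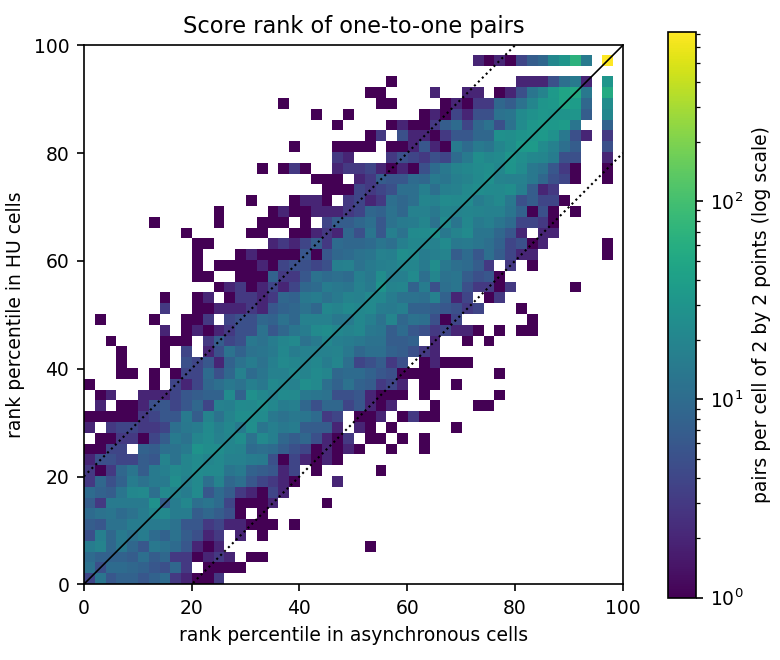
Rank percentile of the score in asynchronous cells (horizontal axis) and HU cells (vertical axis) for 11357 pairs, with the number of pairs per cell in colour on a log scale; the solid line is equality and dotted lines mark 20 points. More pairs lie above the upper dotted line (338) than below the lower (140); the separate strip at the upper right holds peaks at 3100 or more.

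Sites that rose in rank were as a rule wider in HU cells. Of the 338 pairs that rose by 20 points or more, 306 (90.5%) had a wider HU peak, with a median ratio of 1.26. Of the 140 that fell, 63 (45.0%) had a wider HU peak, and the median ratio was 0.973. Over all pairs the share was 73.4%. Width and score come from the same reads of a library, so the 2 measures are not independent. Rising pairs started at a median rank percentile of 34.6 and reached 60.0, and falling pairs went from 63.4 to 36.0. Part of this contrast follows from selecting pairs by a shift of 20 points or more.

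The sites named next had a score of 100 or more in both lists. The largest rise was at chr12:125411592-125413631, from rank percentile 13.05 in asynchronous to 67.2 in HU cells. Its width went from 2040 to 4192 bp, and its score from 100.4 to 960. The site chr1:151964317-151966844 rose from percentile 36.6 to 88.7 and widened from 2528 to 5726 bp, with 2931 bp of extension at the lower end. At chr19:18498534-18499865 the rank went from 18.6 to 64.2 and the width from 1332 to 3446 bp. In contrast, chr2:151341621-151344428 rose from percentile 42.5 to 87.7 with less widening, from 2808 to 3725 bp. The fifth, chr10:102044529-102047283, rose from 33.4 to 77.7. All 5 leading risers were wider in HU cells. The largest fall was at chr16:56664825-56668176, from percentile 76.6 to 34.4, where the width went from 3352 to 2765 bp. At chr7:21982706-21986210 the rank fell from 75.2 to 33.2 and at chr10:16478373-16484037 from 73.5 to 32.9. The site chr1:92948856-92953132 fell from 62.8 to 24.2 although its width stayed near its asynchronous value, at 4483 bp after 4277 bp. The leading fallers thus kept most of their width, with ratios of 0.797 to 1.05.

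Neighbouring BRPF3 peaks were joined more often in HU than in asynchronous cells. An HU peak spanned 2 or more asynchronous peaks in 302 cases (2.32% of HU peaks), and an asynchronous peak spanned 2 or more HU peaks in 135 cases (1.06%). The joined gaps were short. HU peaks closed 326 gaps with a median of 134 bp, 290 of them under 1 kb, and asynchronous peaks closed 137 gaps with a median of 109 bp, 132 of them under 1 kb. A peak that spans several others is wide by construction. Of 322 HU peaks of 8 kb or more, 83 (25.8%) spanned several asynchronous peaks, and 30 of 246 asynchronous peaks of that width (12.2%) spanned several HU peaks. The count depends on how the caller splits a broad site. When peaks of a list within 1 kb of each other were merged first, 98 HU and 22 asynchronous joins were left, and with scores of 100 or more there were 128 and 51.

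**Figure D4:**
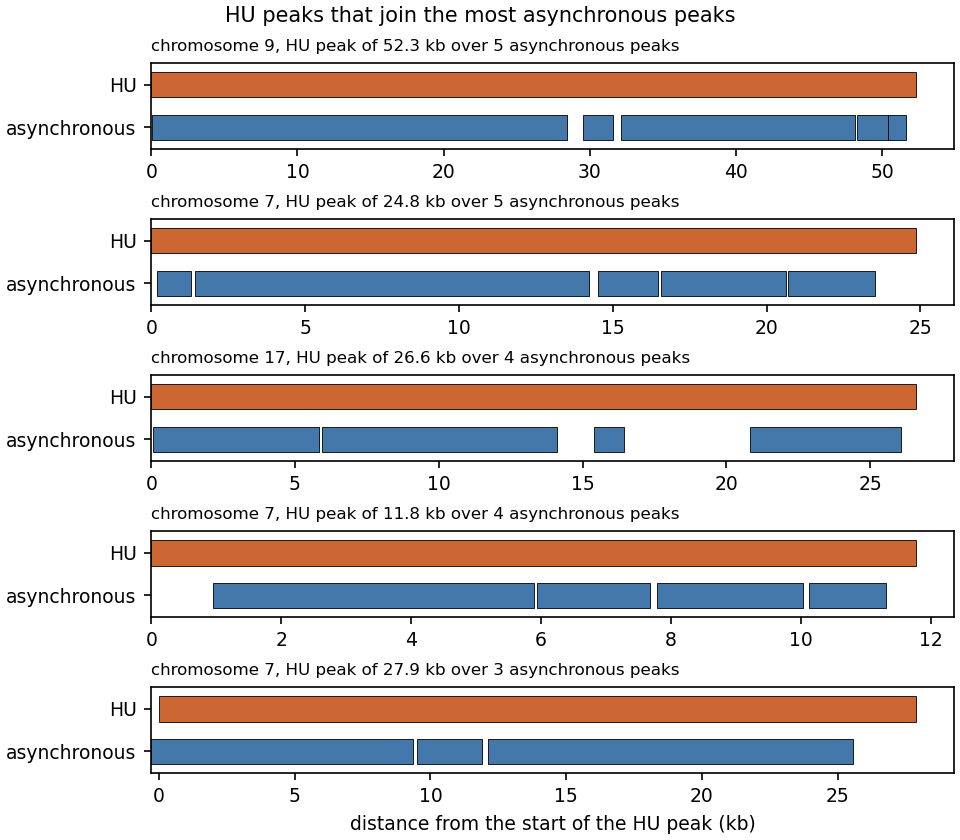
The 5 HU peaks (orange) that span the most asynchronous peaks (blue), the fifth being the widest of 14 that span 3, each drawn to scale in kb from the start of the HU peak. Short gaps split the asynchronous signal in 4 of the regions, while on chromosome 17 a gap of 4399 bp is closed in HU cells.

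Of the 5 HU peaks that spanned the most asynchronous peaks, 2 spanned 5, 2 spanned 4, and the fifth was taken as the widest of 14 that spanned 3. With that choice, 3 of the 5 lay on chromosome 7. The HU peak chr7:81311705-81336548, 24.8 kb wide, covered 5 asynchronous peaks that filled 91.6% of it, with no gap above 310 bp. The HU peak chr7:81140262-81168132, 27.9 kb wide, covered 3, and chr7:84286412-84298179, 11.8 kb wide, covered 4. The region chr17:7736931-7763508 differed from these, since its 4 asynchronous peaks filled 76.2% of the 26.6 kb HU peak and left a gap of 4399 bp. At chr9:21546407-21598685 a 52.3 kb HU peak spanned 5 asynchronous peaks with no gap above 1099 bp. In the opposite direction, the asynchronous peak chr11:132616687-132622420 of 5734 bp was split into 3 HU peaks with scores of 53.3 to 276, while its own score was 1214. The asynchronous peak chr2:242948206-242953054 of 4849 bp, with a score of 2172, was likewise split into 3 HU peaks, none above 158.

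The chromosome 7 sites belonged to dense blocks of peaks, described here after their values were seen. A block was taken as peaks of both lists separated by less than 200 kb. In the first, HU cells held 17 peaks with a summed length of 106 kb, within chr7:81129858-81399826, and asynchronous cells 25 peaks with a summed length of 84.7 kb, so HU cells had fewer but longer peaks. In each list 4 of these peaks reached 3100 and 4 were 8 kb wide or more. HU cells had 7 peaks there that spanned several asynchronous peaks, and asynchronous cells had 0 that spanned several HU peaks. The second block, at chr7:84266854-84331910 in HU cells, held 11 peaks in each list, with summed lengths of 31.4 kb in HU and 20.6 kb in asynchronous cells. By windows of 1 Mb, chr7:81000001-82000000 had the largest rise in covered length of all 2094 windows that held a peak, 20.6 kb. It was followed by chr12:66000001-67000000 with 20.3 kb and chr19:18000001-19000000 with 18.96 kb. In the chromosome 19 window, 19 of 24 pairs were wider in HU cells, beside 8341 of 11357 (73.4%) over all chromosomes. The largest fall was 10.8 kb, at chr17:39000001-40000000, where 3 of 8 asynchronous peaks had no HU partner. Covered length was higher in HU cells in 1746 windows (83.4%) and lower in 347, with a median difference of 1.28 kb.

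Peaks without a partner were counted in windows along the chromosomes, without adjustment for the number of peaks in a window. Nor was there adjustment for how many peaks lacked a partner, 1159 in HU and 689 in asynchronous cells. The counts therefore do not compare the clustering of peaks without a partner. Windows of 1 Mb with 3 or more such peaks numbered 86 for HU and 34 for asynchronous peaks, and held 26.4% of the HU peaks without a partner and 17.3% of the asynchronous ones. The window with the most was chr6:27000001-28000000, where 8 of 40 HU peaks lacked an asynchronous partner while 1 of 33 asynchronous peaks lacked an HU partner. All 8 were weak, with scores of 51.3 to 96.7. The window chr3:67000001-68000000 had the highest share among the leading 5, with 5 of 8 HU peaks, while all 3 asynchronous peaks there had an HU partner. On the asynchronous side, 7 of 38 peaks in chr7:100000001-101000000 and 6 of 22 in chr19:54000001-55000000 lacked an HU partner, whereas all 30 and all 17 HU peaks there had an asynchronous one. Those 7 scored 54.7 to 107 and those 6 scored 50.8 to 64.1. Peaks without a partner occurred in both lists in 256 windows.

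Changes at neighbouring sites were weakly alike. Between adjacent pairs less than 10 kb apart (932 comparisons) Spearman's rho was 0.14 for the log2 width ratio and 0.10 for the rank shift. At 10 to 50 kb (3510 comparisons) the values were 0.058 and 0.045, and at 200 kb or more (2718 comparisons) -0.0075 and 0.026. Adjacent sites share the libraries, the control and, at short range, the signal itself. Of the 476 windows with 8 or more pairs, 455 (95.6%) had a median width ratio above 1, and the 10th and 90th percentiles of the window medians were 1.02 and 1.17. At the ends of that range, chosen after their values were seen, chr6:3000001-4000000 had a median ratio of 1.36 with 8 of 9 pairs wider, and chr2:64000001-65000000 one of 1.35 with 8 of 8 wider. The lowest was 0.906 at chr8:146000001-147000000, where 2 of 8 pairs were wider in HU cells.

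All chromosomes showed the same direction in width and covered length. The median width ratio lay above 1 on each of the 22 chromosomes, from 1.07 on chromosome 9 to 1.13 (1.09 to 1.18) on chromosome 21, and covered length was 1.08 to 1.16 times higher in HU cells on the same chromosomes. HU peaks outnumbered asynchronous peaks on 19 chromosomes. Chromosome 9 was the clearest exception, with 561 HU and 589 asynchronous peaks, and chromosomes 17 (822 and 829) and 19 (910 and 911) were nearly level. The share of peaks without a partner was higher in HU cells on 21 chromosomes and lower on chromosome 9, at 6.24% (4.38 to 8.57%) against 7.13% (5.19 to 9.52%), where the intervals overlap. The widest separations were on chromosome 10, with 11.5% (8.95 to 14.4%) against 3.59% (2.18 to 5.55%), and chromosome 20, with 12.3% (9.05 to 16.1%) against 3.90% (2.10 to 6.58%). Asynchronous cells had their highest share on chromosome 4, 8.47% (6.17 to 11.3%), which overlapped the HU share of 9.96% (7.48 to 12.9%) there. Rank shifts were also summarized by chromosome. Chromosomes 19 and 20 had the highest median rank shifts, 1.93 and 1.98 points upward in HU cells, given without intervals. Pairs that rose by 20 points or more were 33 of 789 (4.18%) on chromosome 19, against 2.98% over all chromosomes. They were 12 of 309 (3.88%) on chromosome 20 and 9 of 636 (1.42%) on chromosome 6. Falls of that size numbered 4 (0.507%), 1 (0.324%) and 10 (1.57%) in the same order, against 1.23% over all chromosomes.

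**Figure D5:**
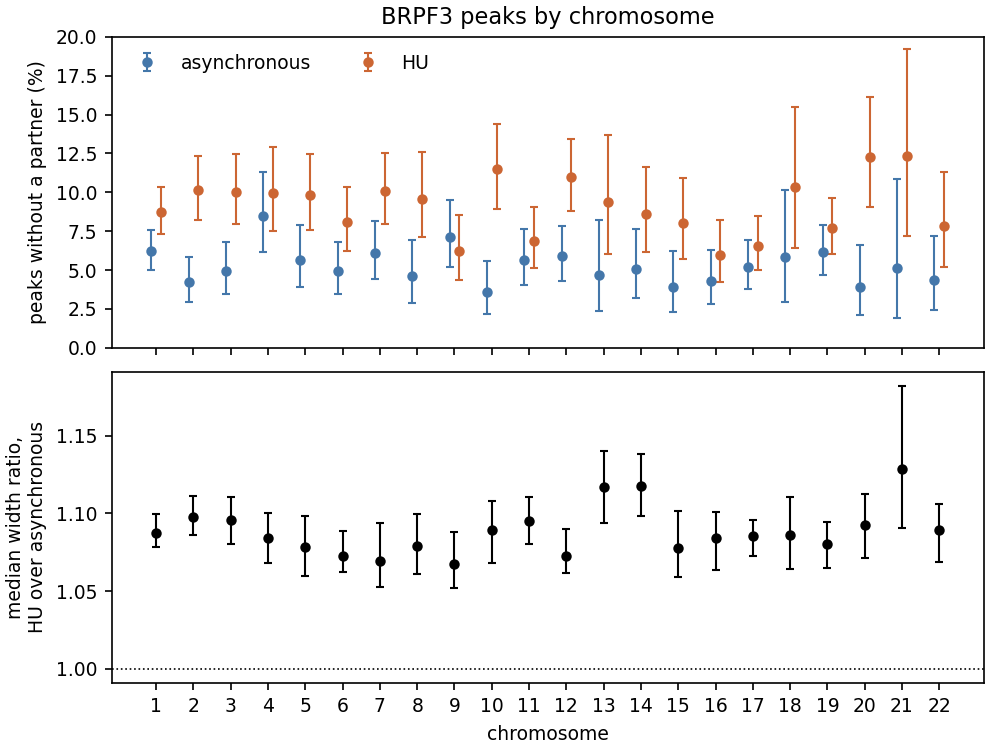
Upper panel, share of peaks without a partner (%) by chromosome for asynchronous (blue) and HU (orange) cells; lower panel, median width ratio of the pairs, with exact 95% intervals as bars in both. The HU share is the higher on all chromosomes but 9, and all 22 medians of the width ratio lie above 1.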

How the data were processed

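The series mapped BRPF3 by chromatin immunoprecipitation and sequencing in RKO cells. Per the submitters' processing notes, which give no order or settings, the tools included MACS 1.4.0 for peaks and Bowtie 0.12.8, beside bedtools and SAMtools. The notes list both hg18 and hg19. Each deposited list holds the authors' peaks of 1 library, and its only measured value is a score. Reading it as 10 times the negative base-10 logarithm of a p-value rests on that peak caller's format and on the minimum of 50. Positions were taken as hg19. The last peaks end at 249202041 on chromosome 1 and 81042223 on chromosome 17, which is past the ends of those chromosomes in hg18 as generally known (no hg18 file was used here), and 373 peaks on 13 chromosomes lie past the last annotated gene of GRCh38. No genome or annotation of that build was used, so genes and sequences are not given. The mimosine list was only counted. Peaks were paired by overlap of 1 bp or more on chromosomes 1 to 22. Rank percentiles used scores capped at 3100, with ties at their mean rank. Regions named were the leading 5 by score without partner, width ratio, rank shift (both scores 100 or more), joined peaks and 1 Mb windows. Members and rules were chosen with earlier results of these data known. Software was SciPy 1.17.1, NumPy 2.4.6 and pandas 2.3.3 under Python 3.11.15, with matplotlib 3.10.9 for plots. Pairing was tested on simulated data, in which peaks were removed or doubled in the list of 12759 asynchronous peaks. It found 99.8% of 1281 removed peaks. Of 531 peaks doubled in width, 500 kept a single partner, and all 500 were found. The other peaks were copied unchanged, so the test checks the code only, not how pairing performs on separate libraries.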

Additional observations from a re-analysis of the deposited data

How the results depend on the processing

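Of 102 values recomputed under 9 other settings, 72 were counted as the same and 30 as moved. A share or median was the same if it stayed within the interval of the main value, and a count if within 1.5 times. The covered-length ratio was the same only if equal after rounding. A change of direction was checked for that ratio alone, which stayed above 1 throughout. Partner shares are given for HU and then asynchronous peaks. They were 95.04% and 95.9% with scores of 100 or more, 92.3% and 93.9% with equal numbers of peaks, 89.1% and 91.1% under a reciprocal overlap of 50%, 88.8% and 90.9% with centres within 1 kb, and 92.5% and 95.1% after merging peaks within 1 kb. Without peaks wider than 10 kb the asynchronous share was 93.5%. At scores of 100 or more, 551 HU and 450 asynchronous peaks lacked a partner, a rule that also removes partners below that score. A total of 1134 asynchronous peaks lacked a partner under the reciprocal rule and 1162 under the centre rule. At scores of 100 or more the HU peak was wider in 74.4% of pairs, 40 pairs narrowed by 1.5-fold, and 285 fell by 20 rank points beside 403 that rose. Joins by HU and by asynchronous peaks numbered 128 and 51 at scores of 100 or more, 98 and 22 after merging, 24 and 10 by centres, and 0 and 0 under the reciprocal rule. By construction a peak can hardly pass that rule with several partners. The covered-length ratio was 1.106 at scores of 100 or more, 1.107 at equal numbers, 1.103 without peaks wider than 10 kb and 1.114 with chromosome X. For the remaining shifts the cause was not tested. No paired analysis was possible because each condition had 1 library. The promoter alternative was not run, as no annotation of the build was used. Depth is unknown and limits what a missing peak means.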
